A study of Mus musculus with 2 samples.

Results

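The cells described here were the 280 control adenoma cells with the highest summed share of UMIs from Alox12, Gmpr, Smpx, Slc30a2 and Aoc1, among 1865 epithelial control cells. They were chosen by these measured values: control barcodes over a fixed UMI minimum (the lowest epithelial cell kept had 9819 UMIs), with at most 20% mitochondrial UMIs and at least 5 Epcam UMIs were taken, and the top 15% by the summed UMIs of the 5 genes over all UMIs of the cell were kept. The other 1585 epithelial control cells served for comparison, out of 2251 control cells and 4847 cells of the whole series within the UMI and mitochondrial limits. A unique molecular identifier (UMI) marks 1 captured transcript, and levels are given as UMIs per 1000000 UMIs (CPM). The cut through the score is a range and not a cell type.

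The series holds 2 droplet libraries of organoids, self-organising epithelial cultures, grown from intestinal adenomas of C57BL/6 mice heterozygous for the Min allele of Apc (ApcMin/+), 17 weeks of age. The treated culture was given 10 μg/ml RSPO1-Fc, in which the Wnt-enhancing ligand R-spondin 1 is joined to an antibody Fc part, and the control culture was not. The unit of this dose is μg in the treatment protocol and mg in a sample description. Both groups carry the Apc allele, and no culture without it was measured. Each group was 1 library, so no test between or within groups was made, and the number of mice behind a culture is not given in the sources used here.

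The libraries held 89437327 (RSPO1-Fc) and 91675581 (control) UMIs and shared 0 cell barcodes. The cultures also differed in genes that mark sex and gut position: Xist, the X inactivation transcript, had 3 UMIs in 2591 RSPO1-Fc epithelial cells and 99976 in control cells, the Y-linked Eif2s3y had 3880 and 0, Gata4, a factor of the small intestine, 3036 and 1, and Hoxb13, a factor of the hindgut, 0 and 6983. A count of 0 of 2591 cells, taken as at most 3 cells, allows a share of cells with a UMI of up to 0.116%. Sex, gut position and any difference in the kit or processing of the libraries therefore cannot be told apart from RSPO1-Fc. Intervals are 95% intervals of counting error and do not cover variation between cells or cultures.

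The 5 genes code for proteins of unlike function. Alox12 is a lipoxygenase that oxidises arachidonic acid, a pathway best known from platelets and skin. Gmpr, guanosine monophosphate reductase, turns guanine nucleotides back towards inosine monophosphate. Smpx is a small cytoskeletal protein known from striated muscle. Slc30a2 carries zinc into vesicles and is known from the granules of mouse Paneth cells, and Aoc1 is the diamine oxidase that breaks down histamine and putrescine in the gut lining. Loss of Apc function leaves β-catenin active, which keeps adenoma cells in a state close to that of crypt stem cells.

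Per cell, the 5-gene score ran from 668 to 2336 CPM in the chosen cells, with a median of 876 CPM, and reached 668 CPM at most in the other cells, with a median of 205 CPM. These values follow from the choice. The score had no gap at the limit: the lowest chosen cells had 668.5, 669.8 and 669.9 CPM, the highest others 667.7, 667.4 and 666.7 CPM, and 66 chosen and 74 other cells lay within 10% of the limit. The chosen cells held 9 to 173 UMIs of the 5 genes (median 25), the others up to 67 (median 6), and 110 others held 0. Depth was close in both, with medians of 26069.5 UMIs in the 5-gene-high cells and 28396 in the other epithelial cells, and median mitochondrial shares of 6.02% and 6.24%.

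**Figure D1:**
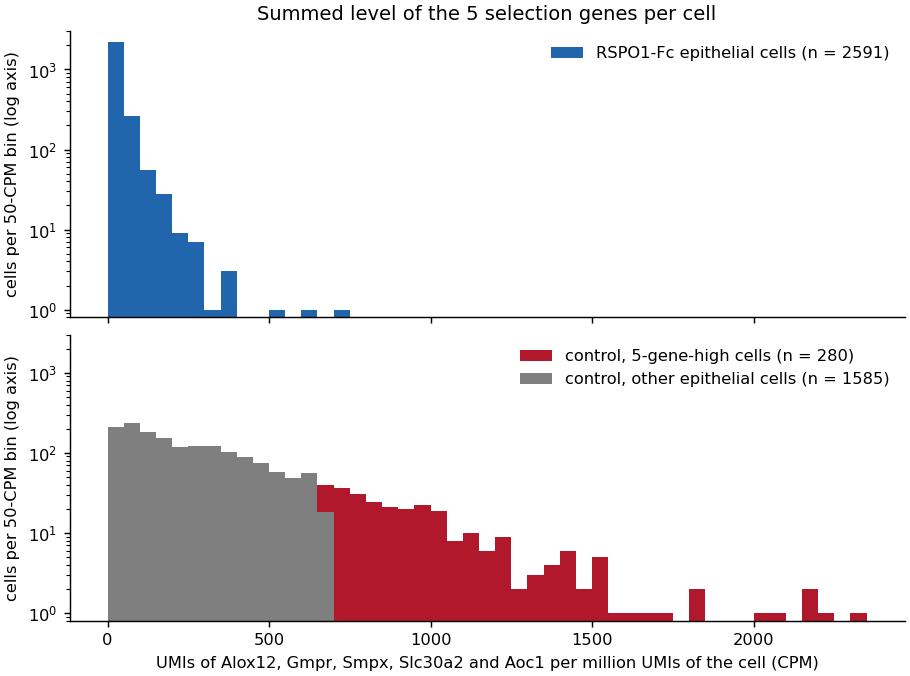
Number of epithelial cells (log axis) per 50-CPM bin of the summed level of the 5 selection genes, in the RSPO1-Fc library (top) and the control library (bottom, where the bars of both groups start at the axis and overlap in 1 bin). The control cells form 1 continuous fall with no gap at the limit of 668 CPM, and 1 of 2591 RSPO1-Fc cells lies above it.

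The name under which these cells were set apart, Alox12-high, was not borne out by the other 4 genes. When Alox12 was left out of the score and the top 15% were chosen by Gmpr, Smpx, Slc30a2 and Aoc1, Alox12 had 51.6 CPM in the 280 chosen cells and 55.9 CPM in the rest, a ratio of 0.923 (0.837 to 1.02). With each of the other genes left out in the same way, the chosen cells were higher in it: Smpx by 3.06-fold (2.90 to 3.23), Aoc1 by 2.30-fold (2.15 to 2.47), Gmpr by 1.70-fold (1.55 to 1.87) and Slc30a2 by 1.61-fold (1.52 to 1.70). The cells are therefore called 5-gene-high cells. Smpx gave 34.6% of their summed UMIs, Slc30a2 23.5%, Aoc1 20.3%, Alox12 13.5% and Gmpr 8.15%.

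**Figure D2:**
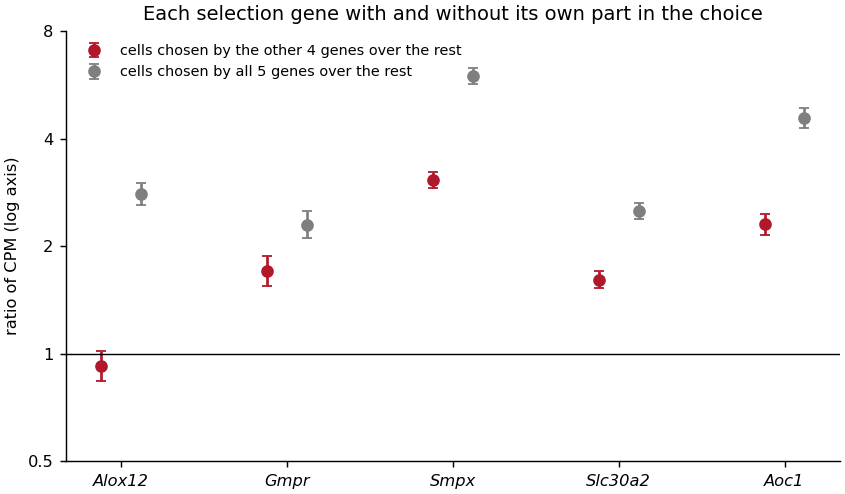
Ratio of CPM (log axis) of each selection gene in chosen cells over the rest of the control epithelium, for cells chosen by the other 4 genes (red) and by all 5 genes (grey), with 95% counting intervals. Alox12 is the gene whose red point, 0.923, is not above 1.

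By the full choice, which fixes that the sum is higher, Smpx (X chromosome, 157698910 to 157752591 of GRCm38, plus strand) had 317 CPM in 5-gene-high cells and 52.8 CPM in other cells. Its cell values had a median of 288 CPM and a maximum of 1527 CPM in 5-gene-high cells, against a median of 0 and a maximum of 582 CPM in others. Aoc1 (chromosome 6, 48872896 to 48909188, plus strand) had 186 and 40.7 CPM, Slc30a2 (chromosome 4, 134343181 to 134354484, plus strand) 215 and 85.6 CPM, Alox12 (chromosome 11, 70241457 to 70255353, minus strand) 123 and 44.0 CPM, and Gmpr (chromosome 13, 45507444 to 45553800, plus strand) 74.6 and 32.5 CPM, in 5-gene-high and other cells. All 5 genes had a UMI in 119 of 280 5-gene-high cells (42.5%, 36.6 to 48.5%) and in 175 of 1585 others (9.54 to 12.7%), so most chosen cells lacked a UMI of at least 1 of them. The groups overlapped in every one of the 5 genes taken alone.

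Across cells thinned to the UMI minimum, Smpx and Aoc1 went together most, with a Pearson r of 0.33 over all 1865 cells, which share 1 library. For Alox12 the r was 0.13 with Gmpr, 0.07 with Slc30a2, 0.02 with Smpx and -0.04 with Aoc1. Cells of another type give a level to set beside these: in 201 macrophage-marked barcodes of the same library, with a median of 14630 UMIs against 26069.5 in 5-gene-high cells, Smpx had 1.55 CPM, Slc30a2 1.24, Aoc1 0.927, Alox12 0.618 and Gmpr 13.0 CPM. Control barcodes of 100 to 500 UMIs, taken as empty droplets, had 24.2 to 56.4 CPM of each of the 5 genes. In thinned cells a Smpx UMI was found in 79.3% of 5-gene-high cells, 24.4% of other epithelial cells and 1.49% of macrophage-marked barcodes.

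The promoter windows of Smpx and Aoc1, from 250 bases before to 50 bases after a transcription start, are shown because these 2 genes were the highest when left out of the choice. They come from RefSeq on GRCm38.p6, each on the plus strand and read 5′ to 3′, with motif matches in capitals.
Smpx, chrX:157698723-157699022: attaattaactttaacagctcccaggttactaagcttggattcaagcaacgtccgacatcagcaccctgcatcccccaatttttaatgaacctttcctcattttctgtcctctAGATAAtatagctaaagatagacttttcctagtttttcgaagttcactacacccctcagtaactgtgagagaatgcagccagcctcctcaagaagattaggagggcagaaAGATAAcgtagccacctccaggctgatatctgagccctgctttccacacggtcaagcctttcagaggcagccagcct
Aoc1 start 1, chr6:48895005-48895304: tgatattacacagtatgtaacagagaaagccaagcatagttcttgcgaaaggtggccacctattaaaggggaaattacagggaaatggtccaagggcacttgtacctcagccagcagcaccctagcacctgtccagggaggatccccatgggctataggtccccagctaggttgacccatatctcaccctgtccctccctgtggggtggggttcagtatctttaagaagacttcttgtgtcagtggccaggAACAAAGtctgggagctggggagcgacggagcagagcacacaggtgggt
Aoc1 start 2, chr6:48904736-48905035: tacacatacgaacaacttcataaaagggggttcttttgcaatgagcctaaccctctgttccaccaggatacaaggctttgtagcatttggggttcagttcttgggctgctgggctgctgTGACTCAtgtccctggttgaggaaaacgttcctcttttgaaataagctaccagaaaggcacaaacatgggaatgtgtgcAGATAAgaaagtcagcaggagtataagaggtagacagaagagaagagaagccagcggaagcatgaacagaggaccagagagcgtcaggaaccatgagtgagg
Motif letters were searched on both strands of the 6 windows in the table for the 5 genes. The Smpx window held 2 GATA matches (AGATAA), the first Aoc1 start 1 SOX match (AACAAAG), and the second Aoc1 start 1 GATA and 1 AP-1 match (TGANTCA), none overlapping another. The windows of Alox12, Gmpr and Slc30a2 held no match to these, to TCF/LEF (CTTTGAT), HNF4 (CAAAGTCCA) or CDX (TTTATNG). Of 32851 windows of all genes, 11.2% held the GATA letters, 5.85% SOX, 7.81% AP-1, 3.73% TCF/LEF, 0.475% HNF4 and 10.9% CDX. A match describes letters in the window and not a bound factor.

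Of 6615 genes with at least 20 CPM in either group, without the 5 selection genes, 50 (0.756%) were at least 2-fold higher in 5-gene-high cells and 168 (2.54%) at least 2-fold lower. Fold limits and log2 ratios use CPM with 1 added to both groups. The named higher genes included enzymes, secreted proteins and metal-binding proteins, and the UMIs of several of them came from a minority of the cells.

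Among the 12 highest named genes, 3 code for enzymes of small molecules. Alox15, a lipoxygenase that places oxygen on carbons 12 and 15 of arachidonic acid in mice, had 55.4 CPM in 5-gene-high cells and 6.40 CPM in other cells (log2 ratio 2.93, 8.66-fold, 7.57 to 9.93) and had a UMI in 92 of 280 and 141 of 1585 cells. Gulo, the last enzyme of vitamin C synthesis in mice, had 160 and 47.3 CPM (3.38-fold, 3.17 to 3.60), with cell medians of 63.9 and 0 CPM in 5-gene-high and other cells. Npl, a lyase of sialic acid, had 36.1 and 12.0 CPM in 5-gene-high and other cells (log2 ratio 1.51).

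The secreted proteins included Lect2, a hepatokine known as a β-catenin target in mouse liver. It had 343 CPM in 5-gene-high cells and 107 CPM in others (3.22-fold, 3.08 to 3.36), with cell medians of 159 and 15.6 CPM. Pnliprp1, a relative of pancreatic lipase, had 1003 and 360 CPM (2.79-fold, 2.72 to 2.86), and Pnliprp2, a galactolipase of the same family, 958 and 422 CPM (2.27-fold, 2.22 to 2.33), each in 5-gene-high and other cells. A Pnliprp2 UMI was present in 69.6% of 5-gene-high cells and 46.5% of others, so that gene marks an overlapping and wider set of control cells. Dkk3, a divergent member of the Dickkopf family of secreted proteins, had 168 and 70.2 CPM (2.40-fold, 2.26 to 2.54).

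Mptx2, a mucosal pentraxin of mouse Paneth cells, had 112 CPM in 5-gene-high cells and 9.04 CPM in others, the highest log2 ratio of the named genes at 3.49. It was confined to few cells: 41 of 280 5-gene-high cells and 71 of 1585 others had a UMI, and the top 5% of 5-gene-high cells held 86.9% of its UMIs there. Npy, the precursor of neuropeptide Y, had 120 and 23.5 CPM, with UMIs in 49 of 280 and 185 of 1585 cells and 91.3% of the 5-gene-high UMIs in the top 5% of cells. Saa3, an acute-phase serum amyloid, had 40.3 and 12.5 CPM, but a UMI in 6.79% of 5-gene-high and 6.75% of other cells. Without the 5% of cells highest in it in each group, its log2 ratio was 0.03, against 1.61 with them.

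Sox18, a transcription factor known from endothelium, had 55.3 CPM in 5-gene-high cells and 9.15 CPM in others (6.05-fold, 5.35 to 6.84). Of 8 endothelial markers, 4 reached 5 CPM, of which 3 were above 0 and none differed by 1.5-fold, with Cdh5 at 11.5 and 10.9 CPM and Cldn5 at 27.2 and 19.7 CPM in 5-gene-high and other cells. The summed level of these markers per cell had a median of 22.9 CPM in 5-gene-high cells and 0 in others. Without the 5% of cells highest in the gene in each group, the log2 ratio was 0.75 for Cdh5, 0.69 for Cldn5 and 0.54 for Egfl7, and the part of endothelial RNA in the Sox18 difference was not tested. Il1r1, the interleukin 1 receptor, had 33.0 and 9.55 CPM (log2 ratio 1.69), Fras1, a basement membrane protein, 40.7 and 13.3 CPM (3.05-fold, 2.69 to 3.45), and Myl9, a myosin light chain, 239 UMIs in 280 and 481 UMIs in 1585 cells (2.97-fold in CPM, 2.53 to 3.48). Of 8 striated muscle markers, 0 reached 5 CPM.

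Lists of genes around the 5 selection genes were read against all 10422 genes at 5 CPM or more. Of these 10422 genes, 3.16% were at least 1.5-fold higher and 7.75% at least 1.5-fold lower in 5-gene-high cells, with a median log2 ratio of -0.03. In the zinc and copper list, without Slc30a2, 4 of 24 genes were 1.5-fold higher and 0 lower, with a median of 0.04. The 4 were the metallothioneins Mt4 (2890 and 1126 CPM in 5-gene-high and other cells), Mt3 (2499 and 1427 CPM) and Mt2 (328 and 215 CPM), which bind zinc and copper, and the zinc importer Slc39a13 (39.2 and 20.6 CPM). Mt4 had a cell median of 1441 CPM in 5-gene-high cells and 35.3 CPM in others. Mt1, the fourth metallothionein of the chromosome 8 cluster, had 628 and 486 CPM, and the other zinc carriers lay within 1.5-fold. In the sarcomere, cytoskeleton and stretch list, without Smpx, 0 of 6 genes were 1.5-fold higher and 4 lower, with a median of -0.70. Among the lower ones were Fhl2 (19.7 CPM in 5-gene-high cells and 47.4 CPM in others) and Vcl (45.2 and 77.2 CPM).

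The lipoxygenase and eicosanoid list, without Alox12, had 1 of 12 genes higher, Alox15, and 3 lower. The lower ones were Hpgd, which breaks down prostaglandins (3.66 CPM in 5-gene-high cells and 13.1 CPM in others), the phospholipase Pla2g4a (0.942 and 6.61 CPM) and the cyclooxygenase Ptgs1 (2.30 and 5.93 CPM). In the purine list, without Gmpr, 0 of 25 genes were higher and 5 lower, among them the deaminases Ada (10.4 and 22.1 CPM) and Gda (2.09 and 8.90 CPM). In the polyamine and diamine list, without Aoc1, 1 of 19 genes was higher and 3 lower, Sat1, which acetylates spermidine and spermine, having 99.7 CPM in 5-gene-high cells and 234 CPM in others. The medians of these lists were -0.29, -0.11 and -0.05. Several of the lower genes had high levels in macrophage-marked barcodes, where Arg1 had 555, Hpgd 140 CPM, Pla2g4a 78.5, Ptgs1 223, Gda 96.4 and Sat1 938 CPM, whereas Ada had 9.58 CPM, and the part of such RNA in the other epithelial cells was not tested.

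Some of the higher genes lie beside a selection gene. Alox15 lies 88798 bases from Alox12 on chromosome 11, both on the minus strand, with Alox12e between them at 1.36 and 0.857 CPM in 5-gene-high and other cells. Tmem176a (779 and 341 CPM) and Tmem176b (918 and 417 CPM), a pair of transmembrane protein genes, lie next to Aoc1 on chromosome 6, 25824 bases from Tmem176a to Aoc1. They were named after their values had been seen, and they overlap by coordinates on opposite strands, so some of their reads could be shared if strand was not used. Pnliprp1 and Pnliprp2 lie 15549 bases apart on chromosome 19. Over the genome, 4 of 6594 pairs of neighbouring genes at 20 CPM had both genes 2-fold higher, and these pairs took in 7 of the 55 higher genes, selection genes included. Among the 168 lower genes, 19 neighbouring pairs had both genes lower.

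Without the 5% of cells highest in the gene in each group, an alternative added after seeing the data, 92 of the 168 lower genes stayed 2-fold lower. Among these, Ly6a, the surface protein Sca-1 of regenerating and fetal-like epithelium in mice, had 5.34 CPM in 5-gene-high cells and 167 CPM in others, with a UMI in 9.29% and 32.5% of cells. Dkk2, a secreted Wnt modulator, had 18.5 and 188 CPM, with cell medians of 0 and 65.8 CPM and a UMI in 18.2% and 61.1% of cells. Lgals4, a galectin of gut epithelium, had 100 and 568 CPM, Krt19, a keratin of simple epithelium, 544 and 1213 CPM, and Sox11, a transcription factor of embryonic tissue, 15.2 and 65.7 CPM, each in 5-gene-high and other cells. Phgr1 had 5.02 and 135 CPM, and Lypd8, a colonic protein that binds flagella, 5.13 and 157 CPM.

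Other lower genes had nearly all their UMIs in few cells. Spink4, a secreted protein of goblet cells, had 4.60 CPM in 5-gene-high cells and 299 CPM in others, but the top 5% of the other cells held 98.7% of its UMIs there. The alpha-defensin Defa24 (1.88 and 176 CPM, 99.8% in the top 5% of others), the trefoil factor Tff3 (0.314 and 50.9 CPM) and the mucin Muc2 (0.628 and 29.4 CPM) were alike in this. Without those cells the log2 ratios were -0.49 for Spink4, -0.47 for Defa24 and -1.32 for Krt14, an intermediate case, against -4.57 for Ly6a, -4.29 for Phgr1, -4.17 for Dkk2, -3.90 for Sox11, -3.03 for Lypd8, -2.72 for Lgals4 and -1.09 for Krt19. Tff3, Muc2, Defa21, Defa22, Defa30 and Ang4 had UMIs in 27 to 70 of the 1585 other cells, fewer than were left out, so the step gives no ratio for them. The defensin genes are near-identical copies and their single counts are uncertain. Car1, a carbonic anhydrase of colon surface cells, had 0.419 and 28.2 CPM in 5-gene-high and other cells, and its log2 ratio was -0.42 without those cells.

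The goblet, Paneth, colon surface and enterocyte marker lists did not give the 5-gene-high cells the identity of any of these types. No list of liver cell markers was read. Of 6 goblet markers at 5 CPM, 5 were 1.5-fold lower and 0 higher, and of 9 Paneth markers, without Slc30a2, 7 were lower and 1, Mptx2, higher. The summed goblet level per cell had a median of 65.3 CPM in 5-gene-high cells and 49.4 CPM in others. The summed Paneth level per cell was similar, with medians of 247 CPM in 5-gene-high cells and 274 CPM in others, and Mmp7, the matrix metalloproteinase of mouse Paneth cells, had 291 and 359 CPM. Of 6 colon surface markers 4 were lower, and of 14 enterocyte markers 2 reached 5 CPM, of which Anpep, a brush border peptidase, had 12.7 and 5.93 CPM. Of 10 tuft cell markers 2 reached 5 CPM, Avil (159 CPM in 5-gene-high cells and 112 CPM in others) and Ptgs1 (2.30 and 5.93 CPM). Of 12 enteroendocrine markers only Pyy did (20.6 and 37.9 CPM). The epithelial list was lower in all 10 members by sign and by 1.5-fold in 4, with Krt8 at 1105 and 2130 CPM and Epcam, which entered the choice of cells, at 1782 and 2174 CPM.

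**Figure D3:**
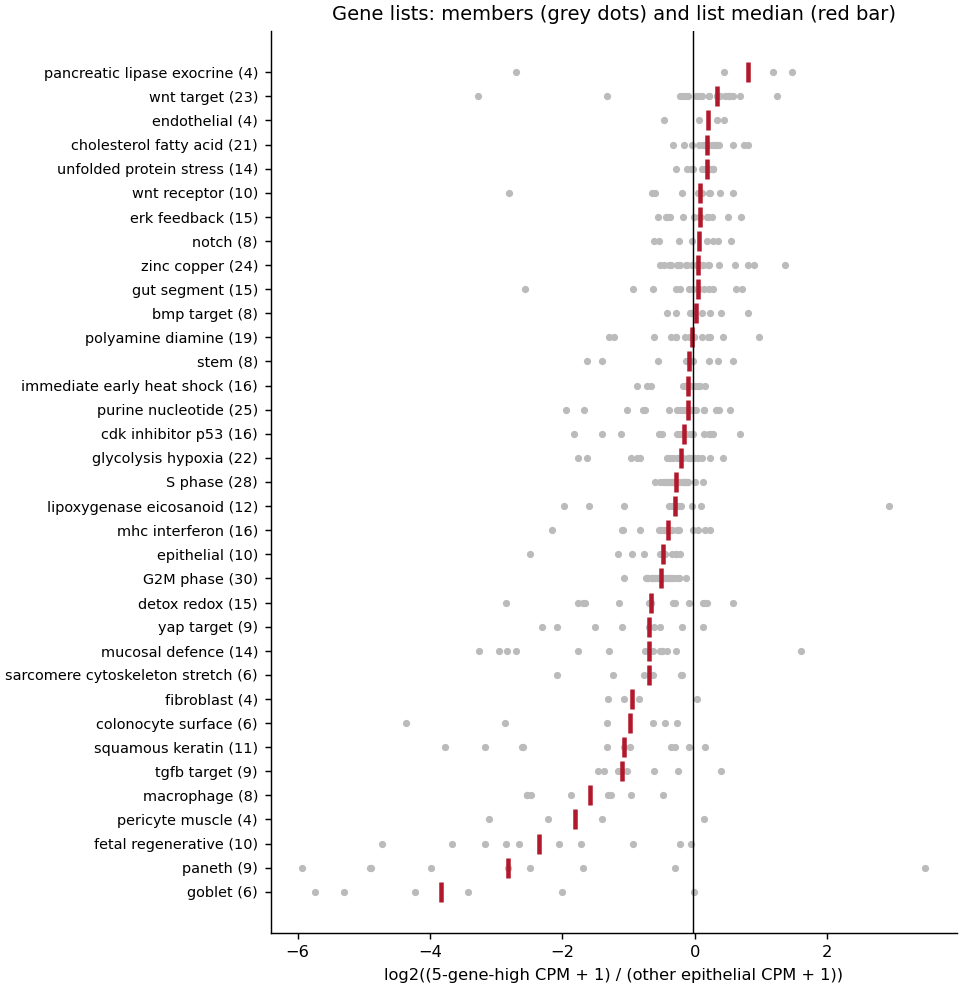
Log2 ratio of CPM, with 1 added, in 5-gene-high over other epithelial control cells for the members of each gene list at 5 CPM or more (grey dots, number in brackets), without the 5 selection genes. Red bars are list medians, from -3.83 for goblet markers to 0.81 for pancreatic exocrine genes, and the black line is the median of all genes, -0.03.

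Fetal and regenerative epithelium genes were lower over the list, with 8 of 10 genes at least 1.5-fold lower, 0 higher and a median log2 ratio of -2.35. Besides Ly6a, the annexins Anxa1 (29.7 and 193 CPM in 5-gene-high and other cells) and Anxa3 (4.08 and 63.7 CPM) and Clu, the clusterin of revival stem cells in mice (284 and 541 CPM), were among them. Of 9 TGF-β targets 7 were lower and 0 higher, with Pmepa1, a feedback inhibitor, at 101 and 227 CPM (549 CPM in macrophage-marked barcodes), and of 9 YAP targets 6 were lower and 0 higher, with the EGF family ligand Areg at 7.01 and 38.7 CPM. Of 11 squamous genes 7 were lower, with the basal keratin Krt14 at 0.628 and 21.3 CPM. The cell cycle inhibitors Cdkn2a (28.7 and 77.2 CPM) and Cdkn1a (152 and 328 CPM) were lower, and Cdkn1c, a further one, was higher (476 and 296 CPM), in 5-gene-high and other cells.

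Of 23 Wnt targets, 17 had a log2 ratio above 0, against 44.3% of all genes. Of these, 2 were 1.5-fold higher, Dkk3 and the transcription factor Sp5 (78.0 CPM in 5-gene-high cells and 48.1 CPM in others), and among the rest 2 were 1.5-fold lower, Dkk2 and the hyaluronan receptor Cd44 (33.4 and 85.4 CPM). The stem cell receptor Lgr5 had 119 and 78.9 CPM (log2 ratio 0.58), and the feedback gene Axin2 380 and 328 CPM. The stem cell marker list, which holds both, had 0 of 8 genes 1.5-fold higher and 2 lower, with a median of -0.08. The lower ones were Slc12a2 (60.2 CPM in 5-gene-high cells and 188 CPM in others) and Gkn3 (9.42 and 26.4 CPM). The Lgr5 difference depended on which genes chose the cells: in the top 15% by Smpx and Aoc1 alone, Lgr5 had 70.2 CPM, against 87.1 CPM in the rest. Gut segment factors went both ways: of 15 at 5 CPM, 2 were 1.5-fold higher and 3 lower, with a median of 0.04. Hoxb13 had 157 CPM in 5-gene-high cells and 95.8 CPM in others, whereas Hoxa11 had 15.5 and 24.6 CPM. Cdx2, a master factor of intestinal identity, had 2 UMIs in 280 and 350 UMIs in 1585 cells.

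Of 30 G2 and M phase genes all were below 0, against 55.7% of all genes, and 11 at least 1.5-fold lower, with a median of -0.51. Of 28 S phase genes 1 was 1.5-fold lower, with a median of -0.28. Mki67, a marker of cycling cells, had a UMI in 22.5% of 5-gene-high cells (17.7 to 27.8%) and in 31.5% of others (29.3 to 33.9%), but in the top 15% by Alox12 alone it had 152 CPM, against 87.1 CPM in the rest. The cholesterol and fatty acid list had 18 of 21 genes above 0, beside the 44.3% of all genes, and 2 that were 1.5-fold higher, Nsdhl (76.6 and 43.5 CPM) and Scd1 (76.7 and 45.1 CPM), in 5-gene-high and other cells.

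Most detected markers of macrophages, fibroblasts and pericytes were lower in 5-gene-high cells by summed UMIs. Of 8 macrophage markers at 5 CPM, 7 were 1.5-fold lower, with C1qa at 2.72 and 20.5 CPM. The summed level of the macrophage list per cell had a median of 0 and an upper quartile of 44.4 CPM in 5-gene-high cells, against 16.9 and 46.6 CPM in others. At least 3 UMIs of non-epithelial markers were found in 10.0% of 5-gene-high cells and 11.5% of others, and without all such cells C1qa had a log2 ratio of 0.09. C1qa is itself among the markers that removed these cells, so this step limits its ratio. The highest doublet scores fell on 1 of 280 and 35 of 1585 cells. Of 4 fibroblast markers at 5 CPM 3 were 1.5-fold lower, with the collagen gene Col1a1 at 6.28 and 14.3 CPM, and of 4 pericyte and smooth muscle markers 3, with Rgs5 at 1.36 and 19.3 CPM, in 5-gene-high and other cells. The summed pericyte and smooth muscle level per cell had medians of 53.9 CPM in 5-gene-high cells and 52.1 CPM in others. Their part in the lower TGF-β and YAP lists, which hold Col4a1, Col4a2, Tgfbi, Ctgf and Ankrd1 among their lower members, was not tested. Of 8 platelet markers Pf4 alone reached 5 CPM, at 1.15 and 13.1 CPM in 5-gene-high and other cells.

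Across 10 bins of about equal cell number by the 5-gene score, some genes changed by degrees and others did not. From the lowest to the highest bin, Pnliprp1 went through 86.9, 346 (bin 5) and 1067 CPM, Mt4 through 213, 1024 and 3069 CPM and Lect2 through 22.5, 104 and 379 CPM. Alb, serum albumin, which was named after its values had been seen, had 62.2, 275 and 965 CPM in the same bins. Ly6a had 719, 82.1 and 6.62 CPM, Krt19 2463, 1127 and 542 CPM, Lgals4 1393, 520 and 94.0 CPM and Clu 713, 535 and 248 CPM. Alox15 and Sox18 were at 4.08 and 8.29 CPM in bin 5 and at 71.6 and 66.8 CPM in the top bin, whereas Lgr5 moved less, with 51.1, 83.2 and 97.5 CPM. Among genes held by few cells, some followed no order: Npy had 61.4, 16.0 and 178 CPM in bins 8, 9 and 10, Spink4 was highest in bin 3 at 1247 CPM, and Defa24 had 582 CPM in bin 8 and 2.37 CPM in bin 10. Mptx2, also held by few cells, was highest in bins 9 and 10, at 83.4 and 97.0 CPM, with 15.5 CPM in bin 6 and 1.68 CPM in bin 7.

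**Figure D4:**
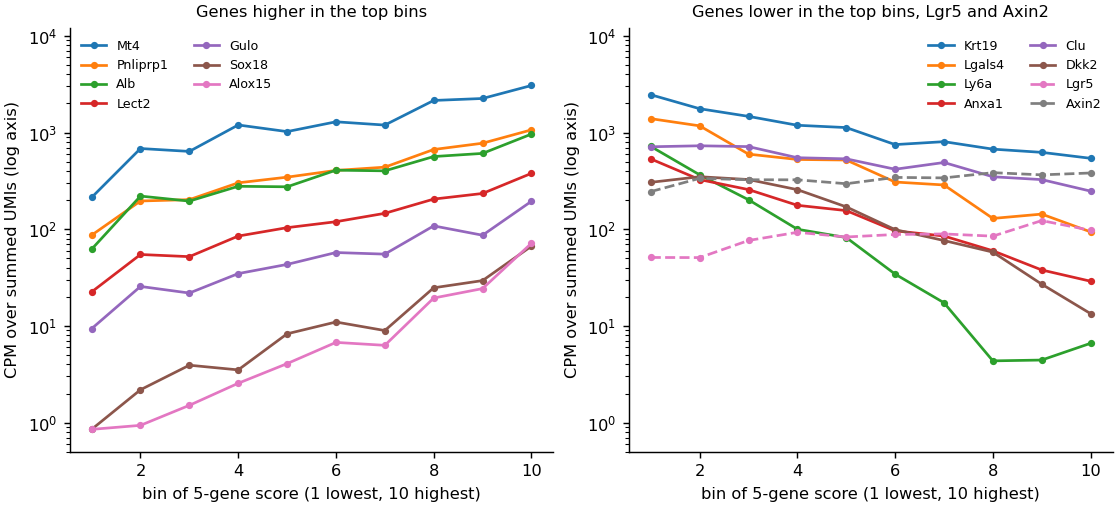
CPM over summed UMIs (log axis) in 10 bins of control epithelial cells by the 5-gene score, 186 or 187 cells each, for genes that were higher (left) and lower (right) in the top bins. Most lines run on in 1 direction through the bins (Pnliprp1 86.9 to 1067 CPM, Krt19 2463 to 542 CPM), and Lgr5 and Axin2 (dashed) change least among the genes of the right panel.

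The 5-gene-high cells were not uniform. The selection gene with most UMIs was Smpx in 132 of them, Slc30a2 in 59, Aoc1 in 48, Alox12 in 39 and Gmpr in 2. This grouping uses the genes of the score: Smpx had 75.8 CPM in Alox12-led and 493 CPM in Smpx-led cells. Genes that go with Smpx can differ between the groups for that reason, which was not tested. Several of the genes highest in the 280 cells were low in the 39 cells led by Alox12: Alox15 had 5.36 CPM (2.32 to 10.6) there, 83.9 CPM (75.7 to 92.7) in the cells led by Smpx, 56.0 CPM in those led by Aoc1, 27.7 CPM in those led by Slc30a2 and 6.40 CPM in the other epithelial cells. Lect2 had 95.9 CPM in Alox12-led, 447 in Smpx-led, 340 in Aoc1-led and 293 in Slc30a2-led cells, and 107 CPM in the others. Gulo had 36.9 CPM in Alox12-led and 208 CPM in Smpx-led cells. Npl had 25.5 CPM in Alox12-led cells, from 6 of 39 cells, 29.7 in Smpx-led, 41.8 in Slc30a2-led and 59.5 in Aoc1-led cells, and 12.0 CPM in the other epithelial cells.

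Lgr5 and Mki67 were highest in the Alox12-led cells, but Axin2 was lowest there. Lgr5 had 201 CPM (179 to 225) in Alox12-led cells, 176 (158 to 196) in Slc30a2-led, 98.6 in Smpx-led and 20.3 in Aoc1-led cells. The other epithelial cells had 78.9 CPM of Lgr5, and its Alox12-led and Slc30a2-led intervals overlap. Mki67 had 151 CPM in Alox12-led, 83.2 in Smpx-led, 51.9 in Slc30a2-led and 32.2 in Aoc1-led cells, and 101 CPM in the others. Axin2 had 329 CPM (300 to 359) in Alox12-led, 373 (347 to 401) in Slc30a2-led, 393 in Smpx-led and 404 in Aoc1-led cells, and 328 CPM in the others. Its Alox12-led and Slc30a2-led intervals overlap as well. Npy was concentrated in Aoc1-led cells, with 471 CPM from 16 of 48 cells, against 93.4 CPM in Smpx-led and 1.34 CPM in Alox12-led cells. Ly6a was low in all 4 groups, at 2.52 to 9.39 CPM, against 167 CPM in the others.

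**Figure D5:**
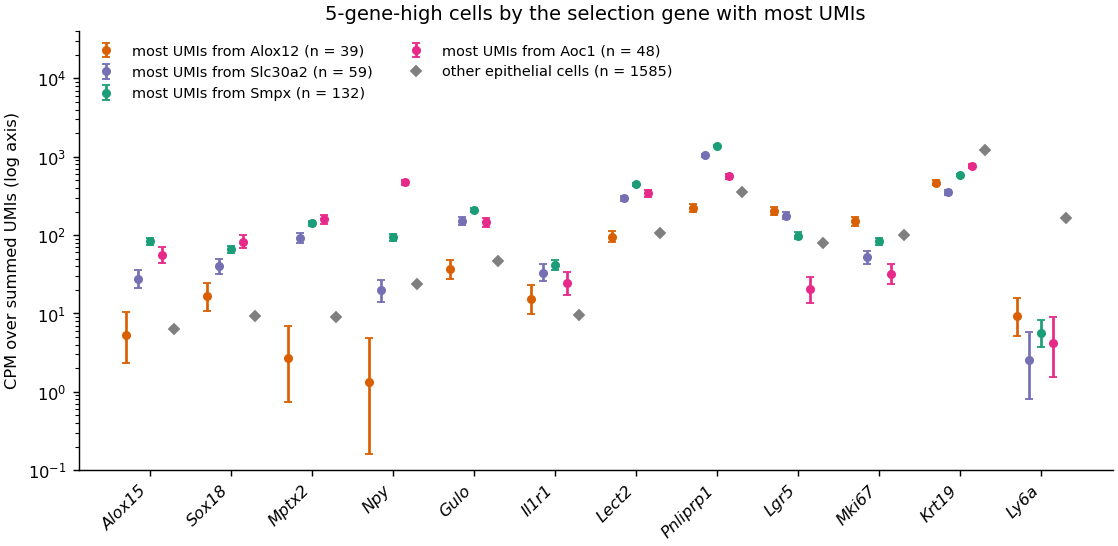
CPM over summed UMIs (log axis) of 12 genes in 5-gene-high cells grouped by the selection gene with most UMIs in each cell, with 95% counting intervals, and in other epithelial control cells (grey diamonds). The orange points of the 39 Alox12-led cells lie below those of the other 3 groups for Alox15, Gulo and Lect2 and above them for Lgr5 and Mki67.

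Cells were also chosen by Alox12 alone. Of the top 15% of control epithelial cells by Alox12, 97 of 280 (34.6%) were 5-gene-high cells, against 199 of 280 (71.1%) for a choice by Smpx and Aoc1, which give more of the summed UMIs, so the order of these overlaps follows from the score. Both choices were added after seeing the data. In the Alox12 set, Pnliprp2 had 191 CPM, against 560 CPM in the rest, Npy 5.59 against 43.6 CPM, Gulo 37.3 against 68.6 CPM, and Aoc1 48.2 against 64.1 CPM, each in the direction opposite to the 5-gene choice. Lgr5 had 134 CPM in the Alox12 set and 74.7 CPM in the rest, and 5 genes were 2-fold higher.

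Neighbourhoods were computed on the other genes. With 20 nearest neighbours on 30 principal components, without the 5 genes, 42.4% of the neighbours of 5-gene-high cells were 5-gene-high on average, against 10.3% for the other cells, where 15% of all cells are 5-gene-high by choice. At least 50% of the neighbours were 5-gene-high for 114 of 280 5-gene-high cells and for 58 of 1585 others. For 36 of the 280, 15% or fewer were.

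In the RSPO1-Fc culture, cells at this score were nearly absent. Of 2591 epithelial cells, 1 reached the control limit (0.0386%, 0.000977 to 0.215%), and the median score was 0. The 5 genes had 0.116 CPM (Smpx), 0.665 (Alox12), 1.10 (Gmpr), 4.76 (Slc30a2) and 9.71 CPM (Aoc1) in RSPO1-Fc epithelial cells, against 90.7, 55.3, 38.5, 104 and 61.5 CPM in control epithelial cells. In RSPO1-Fc barcodes of 100 to 500 UMIs, taken as empty droplets, Smpx had 0.260 CPM, Alox12 0.693, Gmpr 0.953, Slc30a2 3.98 and Aoc1 9.01 CPM. Of the 50 genes 2-fold higher in 5-gene-high cells, 42 (84.0%) were at least 2-fold lower in RSPO1-Fc than in control epithelium, against 20.2% of all 6597 genes compared, with median log2 ratios of -3.02 and -0.27. Of the genes lower in 5-gene-high cells, 39.5% were 2-fold lower in RSPO1-Fc and 20.4% higher, against 20.2% and 3.62% of all genes compared. Many of the 50 passed the CPM filter through control cells in which they are high, so their share is a description.

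The same choice within the RSPO1-Fc library took 389 cells with scores of at least 48.2 CPM and a median of 2 UMIs of the 5 genes, so it rests on few counts. Their median depth was 18457 UMIs, against 25223 UMIs in the rest. Of 5943 genes with at least 20 CPM in either group, 127 (2.14%) were 2-fold higher and 17 (0.286%) 2-fold lower in the chosen cells. Of the 12 highest genes of the control, 6 reached 5 CPM there, of which 5 were 2-fold higher: Gulo (36.5 CPM in chosen RSPO1-Fc cells and 2.62 CPM in the rest), Npy (234 and 23.5 CPM), Mptx2 (22.1 and 1.33 CPM), Lect2 (161 and 33.1 CPM) and Pnliprp1 (47.5 and 4.06 CPM). Gulo, Mptx2 and Pnliprp1 were under 5 CPM in the rest and passed this limit only through the chosen cells, so the count is a description. Mt3 (135 and 12.2 CPM), Mt4 (53.8 and 4.70 CPM) and Pnliprp2 (74.5 and 4.23 CPM) were likewise higher in the chosen RSPO1-Fc cells. Except for Lect2, these UMIs lay in few cells, the top 5% of chosen cells holding 66.3% of them for Gulo and 87.1% or more for the others. Alox15 and Sox18 had 2 UMIs each in the chosen RSPO1-Fc cells, and 6 and 0 UMIs in the rest.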

How the data were processed

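Single-cell 3′ RNA libraries of 2 cultures, 1 per group by the treatment label, were read from the deposited matrices, which hold raw UMI counts per gene and barcode, unfiltered. Per the labels' protocols the 10x v2 kit was used, and the submitters' processing notes name mm10, Cell Ranger 2.1.1 and Seurat 3.1.1. Per the file headers the control matrix names version 3.1.0. It lists 31053 genes and 6794880 barcodes, the RSPO1-Fc matrix 27998 and 737280, so the libraries were processed differently. The 2 matrices therefore do not use the same barcode list, and comparisons of RSPO1-Fc with control may be across kits. Whether both were made with the kit named in the labels was not tested.

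Counts were summed over cells and scaled to CPM. Log2 ratios add 1 CPM, which understates ratios of low genes. Level intervals are exact Poisson, ratio intervals conditional Clopper-Pearson, and share intervals Clopper-Pearson. No p-value was computed, since cells of 1 library do not replicate a condition. The calculation of ratios was checked on simulated summed counts without variation between cells, so that variation is not covered by the check.

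For doublets, scrublet scores were taken (scanpy 1.11.5). No barcode was removed for its score, but the 41 with the highest scores, at a rate of 0.8% per 1000 barcodes, were left out as an alternative. No clustering was made. Thinning drew the UMI minimum from each cell. Analyses ran in Python 3.11.15 with numpy 2.4.6, scipy 1.17.1 and pandas 2.3.3. The alternatives changed the score genes, the share of cells kept, the limits on UMIs, mitochondrial and Epcam UMIs, the CPM filter, pseudocount and fold limit, and left out cells by doublet score, non-epithelial UMIs or cell cycle. A combined Seurat object was not used here. Coordinates are from GENCODE M21, promoters from RefSeq, whose table held no Alox15 window used here. Libraries were compared over 27514 shared gene identifiers, single-gene CPM over all genes of a matrix.

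Named genes were the 12 highest and 12 lowest log2 ratios at 20 CPM, without mitochondrial, ribosomal protein and unnamed models, up to 4 per list with the largest ratios at 5 CPM, and Epcam, Lgr5, Axin2, Mki67, Krt20, Clu, Pnliprp2, Muc2 and Sox11. The cells, the 43 gene lists and the markers were chosen with earlier results of these data known. Other list members are given as values.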

Additional observations from a re-analysis of the deposited data

Results flagged for a closer look

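By the same choice in each library, 8 named genes differed at least 2-fold in opposite directions in the 2 libraries. With 1 library per group these differences were not tested, and the RSPO1-Fc cells were chosen on a median of 2 UMIs. Log2 ratios of chosen over other cells, in RSPO1-Fc and then in the control, were 3.30 and -5.94 for Defa24, 3.14 and -4.91 for Defa30, 2.47 and -4.02 for Defa21, 2.29 and -4.90 for Defa22, 3.82 and -3.99 for Ang4, 2.86 and -5.74 for Spink4, 1.42 and -5.30 for Tff3, and 1.00 and -2.04 for Sox11. In RSPO1-Fc, Defa24 had 1567 CPM in the chosen cells and 158 CPM in the rest, and in the control 1.88 CPM in 5-gene-high cells and 176 CPM in others. The top 5% of chosen RSPO1-Fc cells held 94.9% of the Defa24 UMIs and 98.0% of the Ang4 UMIs there. Slc30a2, a selection gene, had a UMI in 38.3% of the chosen RSPO1-Fc cells and 97.5% of the control 5-gene-high cells. The part of Slc30a2 in the choice was not tested.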

How the results depend on the processing

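No paired analysis was possible because each group was 1 library. Of 71 values recomputed for the counts, the neighbour share and the RSPO1-Fc share, 56 stayed within 1.5 times the reported count or close to the reported share. The 50 higher and 168 lower genes became 90 and 402 at 5 CPM, 31 and 78 at 50 CPM, 112 and 630 with no filter, and 185 and 369 at 1.5-fold. The higher genes numbered 25 without Smpx in the score, 33 with standardised log values and 5 by Alox12 only. The neighbour share was 35.5% for the top 10% and 33.5% without Smpx. The RSPO1-Fc count of 127 higher genes became 81 in thinned cells and 281 at 5 CPM.

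Log2 ratios of genes 2-fold apart, and of list medians, changed sign as follows, and the cause was not tested. Among named genes under 2-fold, 36 changed sign in 67 further values, such as by Alox12 only Mt3 (-0.54), Mki67 (0.79) and Hoxb13 (-0.083). By Alox12 only they were -0.027 for Mptx2, -0.69 for Sox18, -2.76 for Npy, -0.86 for Gulo, -0.64 for Lect2, -2.91 for Saa3, -0.78 for Fras1, -0.48 for Npl, -0.89 for Pnliprp1, -0.16 for Myl9, 0.11 for Gkn3, 0.13 for C1qb, -0.75 for Mt4, 0.73 for Arg1, 0.057 for Fhl2, -0.18 for Dkk3, 0.48 for Spp1, 0.35 for Kif23, 0.091 for Cd74, 0.63 for H2-Eb1, 0.50 for H2-Ab1, -1.54 for Pnliprp2 and -1.51 for the pancreatic exocrine median. Saa3 had -0.64 with at least 1 Epcam UMI, -2.93 without Smpx in the score (Gkn3 0.14) and -2.71 with standardised values. Without cells of 3 or more non-epithelial UMIs, C1qc had 0.17, C1qa 0.087, C1qb 0.12, Lyz2 0.059, H2-Eb1 0.11 and the macrophage median 0.10. C1qa, C1qb and C1qc are among the markers that removed these cells. In cells of low S and G2M share, H2-Eb1 had 1.32 and H2-Ab1 1.44. By Smpx and Aoc1 only C1qa had 0.19, and without each gene's top 5% of cells Guca2a had 0.21 and C1qa 0.039. Genes under about 5 CPM rest on few UMIs in the smaller group, the 5-gene-high cells.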
